A study of Mus musculus with 16 samples.

Results

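The 10 genes described here encode the inducible and constitutive HSP70 chaperones (Hspa1a, Hspa1b, Hspa8), their partners (Hsph1, Dnajb1, Bag3), an HSP90 (Hsp90aa1), a small heat shock protein (Hspb1), a mitochondrial co-chaperonin (Hspe1) and the transcription factor HSF1 (Hsf1). They are 10 of the 22322 gene identifiers in the deposited tables, and each was found by its symbol in the table of either tissue. The set was put together because Hspa1b and Bag3 were much lower in liver after halofuginone. The liver comparison of drug with vehicle therefore chose these genes, and its values for them are given as a description with no test. The values in white adipose tissue were not used in that choice. The comparison of tissues without drug was not used either, but it shares the vehicle livers with the choice and is not independent of it. Although the set was named for cytosolic heat shock proteins, HSPE1 works in the mitochondrial matrix, and HSF1 and BAG3 are a regulator and a co-chaperone.

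RNA was sequenced from DIO (diet-induced obese) mice, which received halofuginone at 100 μg/kg or vehicle into the peritoneum every 2 days for 8 weeks. Halofuginone inhibits the prolyl-tRNA synthetase activity of EPRS1. The 4 groups were vehicle liver (labelled HFD, n = 5), halofuginone liver (H100, n = 5), vehicle white adipose tissue (n = 3) and halofuginone white adipose tissue (n = 3). The obesity is common to all groups, and no lean group was analysed here. The labels give no strain, sex, age or fat depot, and do not say whether each library is a separate animal or whether liver and fat of 1 number share an animal. P-values here measure the spread between libraries, which may in part be technical.

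In resting cells HSF1 is held inactive by chaperones. Unfolded protein draws the chaperones away, and HSF1 then binds heat shock elements in the promoters of Hspa1a, Hspa1b, Dnajb1, Hsph1, Bag3 and related genes. HSP70 proteins fold clients in cycles of ATP hydrolysis, in which J proteins such as DNAJB1 deliver clients and stimulate hydrolysis, and HSPH1 and BAG3 exchange the nucleotide. BAG3 also links HSP70 to small heat shock proteins and sends clients to selective autophagy.

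Promoter sequences are shown because members that were lower together in liver can be compared at the letters HSF1 recognises, which are inverted repeats of GAA. RefSeq windows on GRCm38.p6, running from 250 bases before to 50 bases after the transcription start, were found for 7 of the 10 genes. The stretches below lie before the start. Capitals mark GAANNTTC or TTCNNGAA, searched on both strands, where matches may overlap.
Hspa1b, chr17:34959304-34959403, minus strand: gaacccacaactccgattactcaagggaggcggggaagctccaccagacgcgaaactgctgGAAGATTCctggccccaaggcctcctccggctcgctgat
Hsph1, chr5:149636337-149636396, minus strand: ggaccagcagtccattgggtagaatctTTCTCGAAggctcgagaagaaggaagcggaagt
Bag3, chr7:128523503-128523582, plus strand: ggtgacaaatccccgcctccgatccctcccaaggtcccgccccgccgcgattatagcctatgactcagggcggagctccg
Hspb1, chr5:135887779-135887858, plus strand: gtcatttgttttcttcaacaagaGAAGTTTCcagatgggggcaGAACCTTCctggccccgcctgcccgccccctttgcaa
Hspe1, chr1:55088048-55088117, plus strand: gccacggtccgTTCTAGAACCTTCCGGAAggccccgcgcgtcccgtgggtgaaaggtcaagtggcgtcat

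At least one of these 8-letter words stood in the window of 6 of the 7 genes (Hspa1a, Hspa1b, Hsph1, Bag3, Hspb1 and Hspe1) and in 15.1% of the 32851 RefSeq promoter windows. For Bag3 the match lay after the start, so its printed stretch has no capitals. The Dnajb1 window held neither word, which says only that these letters are not in that window. Both words overlapping by 3 letters, which makes 3 alternating GAA units, stood in the windows of Hspe1 and Hsph1 and in 0.603% of all windows. These 3 units lay before the start in Hspe1. In Hsph1 they lay after it, outside the printed stretch. Hspb1 and Hspe1 carry the word before the start, as Hspa1b and Hsph1 do. In liver both overlapped between the groups, with a log2 fold change of −0.51 for Hspb1 and 0.45 for Hspe1. Whether these letters have a part in any liver difference was not tested.

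Liver libraries held 20309956 to 31980683 counts and fat libraries 17070614 to 21387799. On the first principal component of liver (56.2% of the variance) vehicle scored −36.0 to −28.3, halofuginone replicates 2 to 5 scored 32.4 to 58.0, and halofuginone replicate 1 scored −23.3, next to vehicle. Liver values are therefore given with the place of that library. Hepatocyte markers (7 of 7 detected) summed to 117099 to 128746 CPM (counts per TMM-adjusted library total) in vehicle liver and to 37960 to 110631 CPM under halofuginone. The single hepatocyte markers were mixed, with 6 lower and 1 higher in the fit. Of them edgeR called 2 lower and 1 higher, beside 10.5% and 12.7% of all genes tested. Adipocyte markers in liver summed to 69.7 to 146 CPM in vehicle (Plin1 and Lep at 0) and to 23.5 to 73.6 CPM under halofuginone (Adipoq and Lep at 0). In fat, macrophage markers summed to 2387 to 3362 CPM in vehicle and to 1162 to 1330 CPM under halofuginone (Clec4f at 0). The part of these shifts in the values below was not tested, and in bulk tissue fewer cells of a type and less RNA per cell cannot be told apart.

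In liver 8 of the 10 genes had a lower and 2 a higher fitted level with halofuginone. Of these, 6 were lower in every treated library than in any vehicle library, namely Hspa1a, Hspa1b, Hspa8, Hsph1, Dnajb1 and Bag3. The inducible HSP70 genes were lower by about 3 on the log2 scale and the other 4 by about 1. The higher values were those of Hspe1 and Hsf1. All 10 passed the filter on low counts. Since the genes were chosen on this comparison, nothing is read from the count, which stands beside the background of the 12311 genes tested. Of those, edgeR called 23.2% (Benjamini-Hochberg adjusted p under 0.05), 12.7% higher and 10.5% lower, and the groups did not overlap in 5.13% with halofuginone higher and 6.55% with halofuginone lower. The median log2 fold change of the 10 was −0.89, against 0.017 over all genes tested, and −0.73 against 0.17 with scaling by library size alone. The plot of each library relative to the vehicle mean shows these differences.

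**Figure D1:**
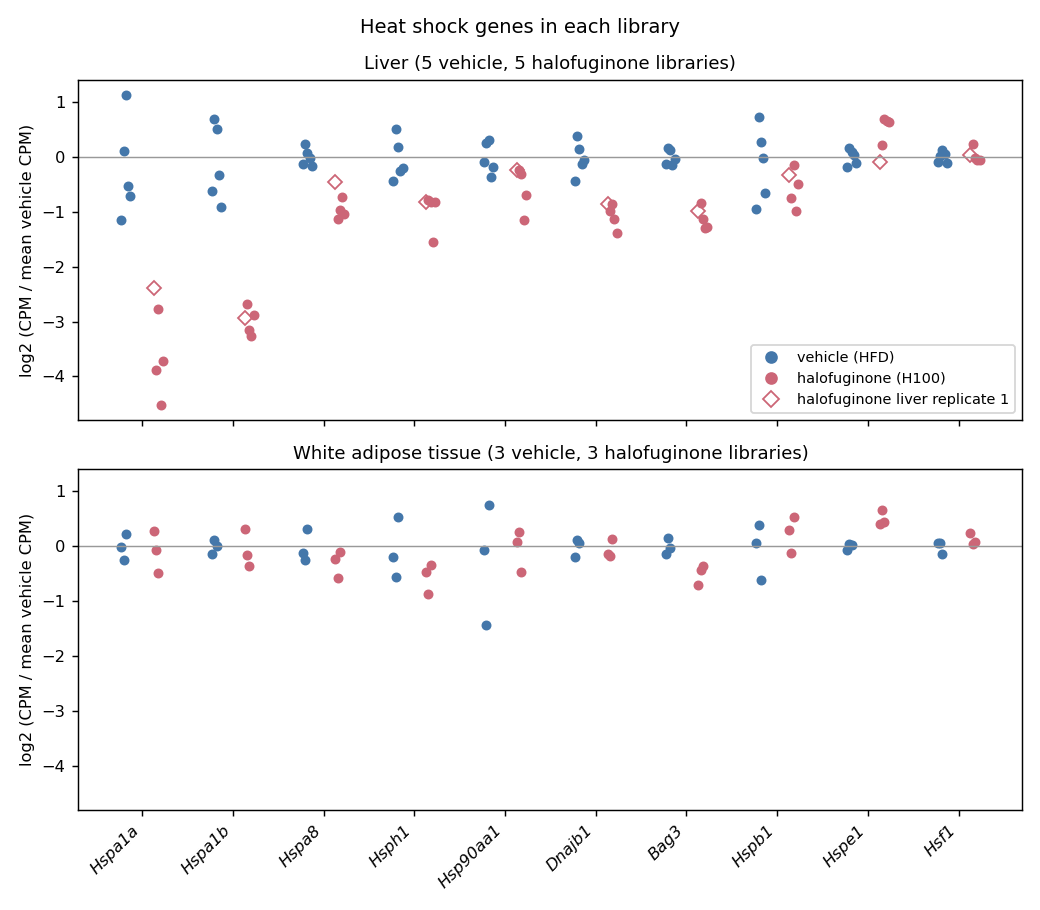
Log2 of the CPM in each library over the mean vehicle CPM of the same tissue (y axis) for the 10 genes (x axis), with liver above and white adipose tissue below. Each point is 1 library, blue for vehicle and red for halofuginone, and the open diamond is halofuginone liver replicate 1. In liver the red points of 6 genes lie below all blue points, replicate 1 included, while in fat that holds only for Bag3.

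Hspa1b (ENSMUSG00000090877) encodes the stress-inducible HSP70, which is low in unstressed cells and rises on heat shock. Its level in vehicle livers 1 to 5 was 51.0, 126, 113, 62.9 and 42.1 CPM, and in halofuginone livers 1 to 5 it was 10.4, 12.3, 8.87, 8.26 and 10.7 CPM. The vehicle livers spread about 3-fold and the halofuginone livers lay close together, with the lowest vehicle library well above the highest halofuginone library. The means were 79.0 ± 38.01 and 10.1 ± 1.61 CPM (SD, n = 5 each). On the log2 scale the change was −2.96 (SE 0.31), or 7.81-fold lower. Hspa1a (ENSMUSG00000091971), the neighbouring gene for a nearly identical protein, measured 1.98, 4.76, 9.60, 3.06 and 2.69 CPM in vehicle livers and 0.844, 0.298, 0.644, 0.193 and 0.335 CPM in treated livers. Its log2 fold change was −3.26 (SE 0.51), and it rests on 5 to 18 counts in each halofuginone library, above the 3 counts that a count of 0 would still allow.

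The split of reads between the HSP70 pair is uncertain, because 38.1% of the 150-base windows of the Hspa1a transcript also occur in that of Hspa1b. Their promoter windows are 98.7% identical (4 differences in 300 bases), and the stretch printed for Hspa1b is the same in Hspa1a. The sum of both genes, an alternative chosen after seeing the data, does not depend on the split. It averaged 83.4 ± 40.3 CPM in vehicle livers and 10.6 ± 1.62 CPM in treated livers (SD, n = 5 each), with no overlap. Hspa1a held 3.63 to 7.86% of the pair's counts in vehicle livers and 2.28 to 7.52% in halofuginone livers. In fat it held 34.5 to 44.1% in vehicle and 38.3 to 42.1% under halofuginone, so that no fat library overlapped any liver library.

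**Figure D2:**
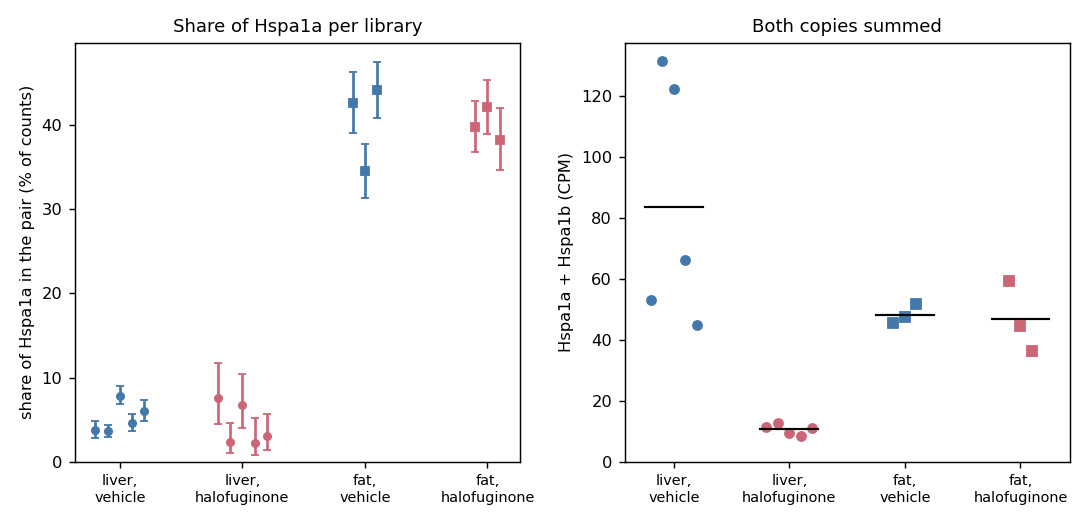
Left, the share of Hspa1a in the summed counts of Hspa1a and Hspa1b, with 95% exact (Clopper-Pearson) intervals that cover counting error only. Right, the summed CPM of both genes with a bar at the group mean. Each point is 1 library; the share lies below 8% in every liver and above 34% in every fat library, and the liver sum averages 83.4 CPM with vehicle and 10.6 CPM with halofuginone.

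Among the partners of HSP70, Bag3 (ENSMUSG00000030847) had the smallest standard error. It measured 57.7, 70.7, 68.8, 56.6 and 61.3 CPM in vehicle and 31.6, 34.9, 28.6, 25.7 and 25.9 CPM under halofuginone. Vehicle livers were all above 56 CPM and halofuginone livers all below 35 CPM. Its log2 fold change was −1.10 (SE 0.11), from 63.0 ± 6.41 to 29.3 ± 3.94 CPM (SD, n = 5 each). Dnajb1, the J protein induced by heat, measured 33.5, 59.0, 50.5, 41.4 and 43.6 CPM in vehicle and 25.1, 23.0, 25.2, 20.7 and 17.4 CPM under halofuginone, a log2 fold change of −1.03 (SE 0.15). Hsph1, the HSP110 nucleotide exchange factor, measured 139, 268, 214, 158 and 163 CPM in vehicle and 107, 109, 106, 64.6 and 106 CPM under halofuginone. Its log2 fold change was −0.94 (SE 0.20), and 4 of the 5 halofuginone livers lay within 3 CPM of each other. Hspa8, the constitutive HSC70 and the most abundant of the set, measured 2808, 3608, 3226, 3049 and 2733 CPM in vehicle and 2244, 1401, 1583, 1846 and 1506 CPM under halofuginone, a log2 fold change of −0.85 (SE 0.17). Halofuginone replicate 1 was the highest treated library for Hspa8 and for Hspa1a, and lay between the other treated livers for Hspa1b.

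The other 4 genes overlapped between the groups in liver. Hsp90aa1, the stress-inducible cytosolic HSP90, measured 471, 601, 622, 392 and 446 CPM in vehicle and 426, 426, 410, 228 and 312 CPM under halofuginone, a log2 fold change of −0.49 (SE 0.20). Hspb1, the small heat shock protein HSP25, ranged from 47.4 to 152 CPM in vehicle and from 46.3 to 82.5 CPM under halofuginone (log2 fold change −0.51, SE 0.29). Hspe1, the co-chaperonin HSP10, measured 57.1, 72.5, 69.4, 66.8 and 60.6 CPM in vehicle and 61.2, 76.0, 105, 103 and 102 CPM under halofuginone. For Hspe1 replicates 2 to 5 lay above every vehicle liver and replicate 1 lay inside the vehicle range (log2 fold change 0.45, SE 0.15). Hsf1 messenger RNA averaged 9.36 ± 0.647 CPM in vehicle livers and 9.55 ± 0.869 CPM in treated livers (SD, n = 5 each), with a change of 0.030 on the log2 scale (SE 0.096), and its protein activity was not measured. Leaving out halofuginone replicate 1, the log2 fold changes of Hspe1 and Hsp90aa1 were 0.54 and −0.58.

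Halofuginone replicate 1 therefore lay below every vehicle liver for the same 6 genes as the other treated livers. Among 32 other pathway genes it lay below every vehicle liver for 13, inside the vehicle range for 16 and above it for 3. The other 4 treated livers all lay below vehicle for 12 of the 32 and all above it for 16. The 13 and the 12 are not the same genes. For Ddit3, Dnaja3 and Hspa9 replicate 1 lay below every vehicle liver while the other 4 all lay above. For Hyou1 and Per2 it lay below while the other 4 overlapped vehicle. For Fkbp4, Hspa4l, Hspb6 and Jun the other 4 lay below vehicle and replicate 1 inside its range. Most of the 32 were named because edgeR called them in this liver comparison, which favours genes where treated and vehicle livers lie apart. The share of all genes in these positions was not counted. Hspa9, the mitochondrial HSP70, was at 528 CPM in replicate 1, at 1134 to 1452 CPM in replicates 2 to 5 and at 555 to 597 CPM in vehicle. Lonp1, a mitochondrial protease, was at 119 CPM in replicate 1, at 342 to 460 CPM in the other 4 and at 117 to 140 CPM in vehicle.

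Within groups the liver libraries varied together for most of the set. After subtraction of the group mean from log2 CPM, 39 of the 45 pairs of the 10 genes correlated positively over the 10 livers, with a median Pearson r of 0.54. Bag3 and Hsp90aa1 were the closest pair (r = 0.85). Without Hspe1, 35 of 36 pairs were positive, with a median r of 0.61. Over the 6 fat libraries 17 of 45 pairs were positive, with a median r of −0.094. These correlations describe libraries that share preparation and depth, and they carry no test. The share of positive pairs among all genes was not counted. Among 8816 genes with at least 5 CPM in liver, those closest to Bag3 by the same measure over 10 livers were Ammecr1l (r = 0.97), Mbl1 (0.93), Extl3 (0.93), Slc39a10 (0.92) and Mrps22 (0.91). Those closest to Hspa1b were Arhgef15 (r = 0.95), Phf8 (0.93), Dennd6a (0.92), Rbm15 (0.92) and Cplane1 (0.91). Within the set, the closest to Hspa1b were Hsph1 and Hspb1, at r = 0.79 each and ranks 76 and 79 of the 8816 genes. The other members with at least 5 CPM ranked from 294 (Bag3) to 2652 (Hspe1) for Hspa1b. For Bag3 the members ranked from 24 (Hsp90aa1) to 6991 (Hspe1), with Hspa1b at 313 and Hspa8 at 2637.

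In white adipose tissue, whose libraries the choice of genes did not use, edgeR with Benjamini-Hochberg adjustment called 0 of the 10 genes, beside 0% of the 14030 genes tested. Unadjusted p-values were under 0.05 for 2 of the 10, Bag3 and Hspe1, beside 13.4% of all genes. DESeq2 called 1 of the 10, Hspe1, as higher, beside 208 of 18572 genes called higher and 447 lower. The limma fits on FPKM called 0 of the 10, beside 13 of 12113 genes with log2(FPKM + 1) and 0 with log2(FPKM + 0.1). The groups did not overlap for Bag3, lower under halofuginone (background 10.4% of genes), and for Hspe1, higher (background 10.2%). The median log2 fold change of the 10 was −0.046, against 0.012 over all genes tested.

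Bag3 in fat measured 88.7, 109 and 95.4 CPM in vehicle and 60.1, 72.1 and 76.5 CPM under halofuginone. All 3 treated libraries lay below all 3 vehicle libraries. The log2 fold change was −0.49 (SE 0.16, edgeR adjusted p 0.289), a difference that the test could not separate from replicate spread over all genes. Hspe1 measured 43.0, 46.0 and 45.7 CPM in vehicle and 59.3, 71.2 and 61.2 CPM under halofuginone, so that all treated libraries were higher. Its log2 fold change was 0.51 (SE 0.14, edgeR adjusted p 0.224, DESeq2 adjusted p 0.0182).

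Hspa1b in fat did not show the liver difference. It measured 26.0, 31.1 and 28.9 CPM in vehicle and 35.7, 25.7 and 22.4 CPM under halofuginone, with treated libraries on either side of the vehicle range and a fitted change of −0.039 on the log2 scale (SE 0.21, edgeR adjusted p 0.958). Hspa1a (−0.061, SE 0.24, edgeR adjusted p 0.943), Hsp90aa1 (−0.017, SE 0.51, 0.994) and Dnajb1 (−0.053, SE 0.16, 0.921) were as near to 0, and the sign of these 4 genes changed with the scaling or on leaving out single libraries. Hsp90aa1 varied most between fat libraries, at 322, 125 and 570 CPM in vehicle and 357, 404 and 244 CPM under halofuginone. Without vehicle replicate 3 its log2 fold change was 0.58. Hsph1 (−0.55, SE 0.31, edgeR adjusted p 0.489), Hspa8 (−0.29, SE 0.23, 0.639), Hspb1 (0.27, SE 0.29, 0.752) and Hsf1 (0.12, SE 0.15, 0.771) also overlapped between the groups. Without vehicle replicate 3, the highest Hsph1 library at 147 CPM, the value of Hsph1 was −0.17. The difference between the liver and fat effects was not tested for these genes, since the liver effect chose them.

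**Figure D3:**
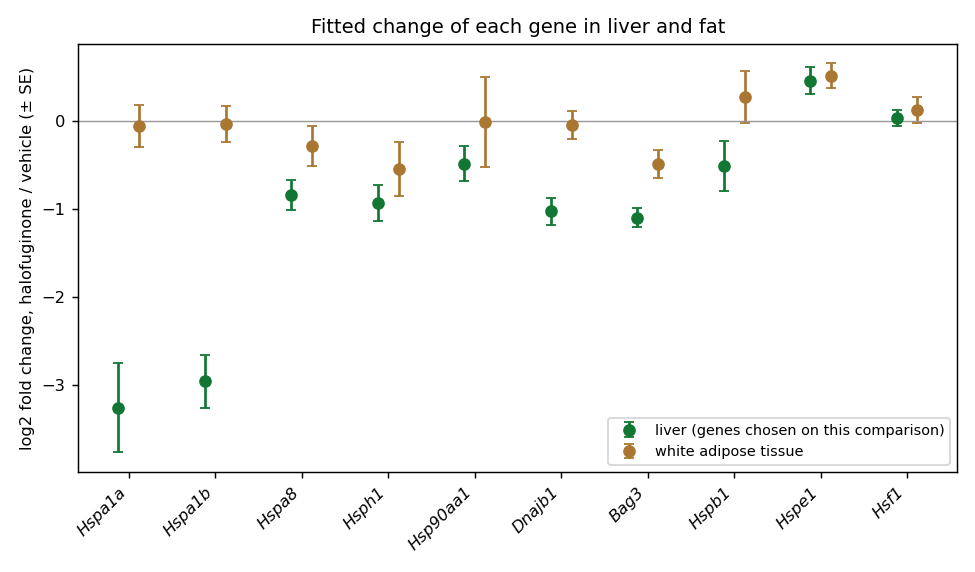
Log2 fold change of halofuginone over vehicle (y axis) for each gene (x axis) in liver (green, 5 against 5 libraries) and white adipose tissue (brown, 3 against 3). Bars are the standard error of the edgeR fit. Hspa1a and Hspa1b lie near −3 in liver and within 0.1 of 0 in fat, and Bag3 lies below 0 and Hspe1 above 0 in both tissues.

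The levels of the genes differed widely in FPKM, the deposited unit per length, which allows genes to be compared. In vehicle liver Hspa8 stood first at 1224 FPKM, followed by Hsp90aa1 (159), Hspb1 (95.8), Hspe1 (79.9), Hsph1 (49.8), Hspa1b (26.5), Bag3 (23.3), Dnajb1 (14.4), Hsf1 (4.43) and Hspa1a (1.39). Among neighbours in that order, the libraries of Hsp90aa1 and Hspb1, Hspb1 and Hspe1, Hsph1 and Hspa1b, and Hspa1b and Bag3 overlapped. In halofuginone liver Hspa1b stood ninth at 3.81 ± 0.661 FPKM and overlapped Hsf1 (4.89 ± 0.577 FPKM, SD, n = 5 each). In vehicle fat the order was Hspa8 (985 FPKM), Hspb1 (152), Hsp90aa1 (109), Hspe1 (56.7), Bag3 (37.4), Hsph1 (27.3), Dnajb1 (14.1), Hsf1 (12.7), Hspa1b (10.01) and Hspa1a (6.41). The ranges there overlapped for Hspb1 and Hsp90aa1, Hsp90aa1 and Hspe1, Bag3 and Hsph1, Dnajb1 and Hsf1, and Hsf1 and Hspa1b.

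**Figure D4:**
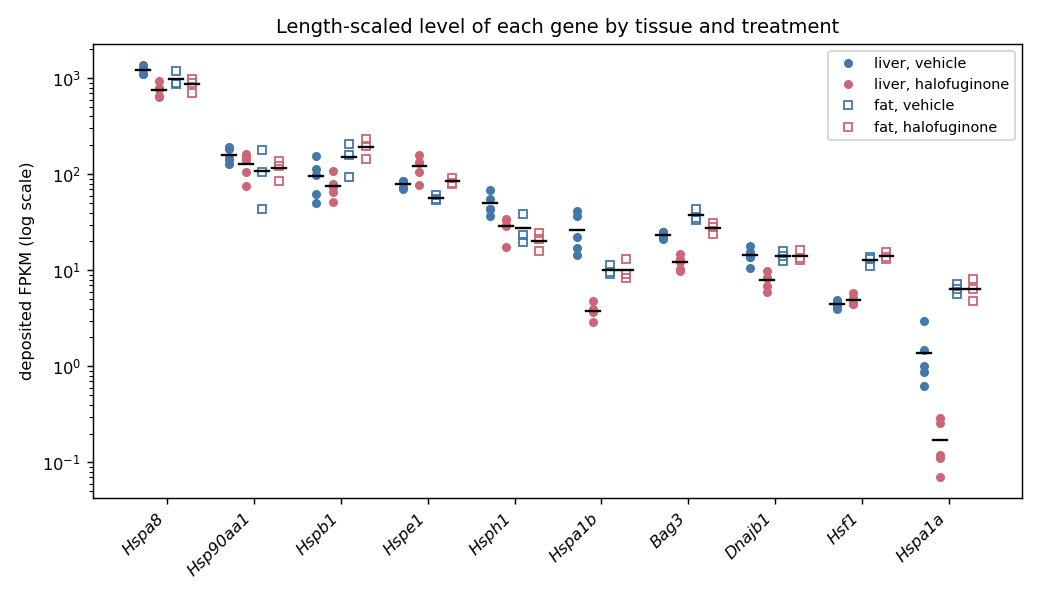
Deposited FPKM of each gene (log scale) in each library, with a bar at the group mean. Filled circles are liver and open squares fat, blue for vehicle and red for halofuginone. Hspa8 is highest in every group, and Hspa1b in liver moves from sixth (26.5 FPKM) to ninth (3.81 FPKM) of the 10.

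The vehicle groups were also compared between tissues, which shows the level of the genes without drug. The same vehicle livers took part in the choice of the genes, which favours high vehicle liver values. The calls below are therefore not independent of that choice. With TMM scaling, edgeR called 6 of the 10 lower in fat than in liver and 0 higher, at an adjusted p under 0.05 and more than 1 on the log2 scale. The background was 52.2% of 14051 genes called, 30% higher and 22.1% lower. Hspa1b differed most, at −2.68 (SE 0.39, edgeR adjusted p 0.000151), followed by Hsph1 (−2.14, SE 0.29), Hsp90aa1 (−1.83, SE 0.40), Hspe1 (−1.76, SE 0.12), Hspa8 (−1.59, SE 0.19) and Dnajb1 (−1.29, SE 0.19). Most of this depended on how liver and fat are put on 1 scale. Scaling by library size alone shifted the median of all genes from 0.022 to 1.29. It left Hspa1b as the only member called lower (−1.40, edgeR adjusted p 0.00343), called Hsf1 and Hspa1a higher, and turned Bag3 from −0.58 to 0.69 and Hspb1 from −0.60 to 0.67. Its background was 8191 of 14051 genes called higher and 1366 lower. The limma fits on FPKM also called only Hspa1b lower, beside 1139 of 11711 genes with log2(FPKM + 1) and 1234 with log2(FPKM + 0.1). Hspa1a, at 0.93 (SE 0.44, edgeR adjusted p 0.0784), was higher in fat in the fit while the pair summed was lower at −2.01, since Hspa1b makes up most of the pair in liver. Without vehicle liver replicate 3 the value of Hspa1a was 1.43 and was called. Bag3 had an edgeR adjusted p of 0.00297 with TMM scaling but lay under the fold threshold.

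Chaperone genes beyond the 10 were taken from lists of pathway genes. Liver calls among them in the main fit are read against the backgrounds of 12.7% of genes called higher and 10.5% called lower. Counts from other fits have other backgrounds. Without halofuginone replicate 1, 2628 of 12422 genes were called higher and 2684 lower. With library size alone, 2789 of 12311 genes were called higher and 838 lower. Of 16 other cytosolic HSP70, HSP90 and HSP40 genes, 4 fell and 2 rose in liver, with a median of −0.12. Dnaja1, a J protein partner of HSC70, fell from 423 ± 41.6 to 188 ± 48.1 CPM (SD, n = 5 each; log2 fold change −1.17, SE 0.17, edgeR adjusted p 0.00317). Dnajb4, a J protein of the DNAJB1 class, fell by 0.71 (SE 0.12, edgeR adjusted p 0.00516), and both were below every vehicle liver in 5 of 5 treated livers. Hspa4l, an HSP110 relative, fell by 0.70 (SE 0.18, edgeR adjusted p 0.0202), and Dnaja2 rose by 0.42 (SE 0.10, edgeR adjusted p 0.0188). Hspa4l lost its call in 5 of 18 alternatives, among them without vehicle replicate 2 or halofuginone replicate 3 (edgeR adjusted p up to 0.0575 there). Dnaja2 lost its call without vehicle replicate 2 or halofuginone replicate 5 (edgeR adjusted p up to 0.0569). Without halofuginone replicate 1 the counts were 6 lower and 4 higher, and with library size alone 3 lower and 4 higher, with a median of 0.035. Hsp90ab1, the constitutive HSP90, was not called (−0.42, SE 0.15, edgeR adjusted p 0.0638) and is named after its value was seen.

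Of 20 co-chaperones 4 fell and 3 rose, with 9 lower and 5 higher without replicate 1, and 3 lower and 7 higher with library size alone. Fkbp5, an HSP90 co-chaperone and glucocorticoid target, fell from 173 ± 31.4 to 85.2 ± 13.8 CPM (SD, n = 5 each; log2 fold change −1.02, SE 0.16, edgeR adjusted p 0.00377). Chordc1, an HSP90 partner induced by heat, fell by 0.63 (SE 0.13, edgeR adjusted p 0.0105) with no overlap between the groups, though it was not called in 1 fit of all groups (edgeR adjusted p 0.0628). Fkbp4 (−0.66, SE 0.19) and Unc45a (0.62, SE 0.18) were called with all libraries and lost their calls in 7 and 9 of the 10 fits that left out 1 library (edgeR adjusted p up to 0.0772 and 0.0846). Of 8 partners of BAG3 tested, 3 fell and 1 rose, with 5 and 1 without replicate 1, and 2 and 1 with library size alone. Synpo, synaptopodin, fell from 9.43 ± 2.17 to 3.83 ± 1.22 CPM (SD, n = 5 each; −1.30, SE 0.24, edgeR adjusted p 0.00719), and Hspb6, a small heat shock protein, fell from 9.86 ± 1.05 to 3.796 ± 2.61 CPM (−1.40, SE 0.32, edgeR adjusted p 0.0154). In Hspb6 replicate 1 (8.44 CPM) lay inside the vehicle range and the other 4 at 2.38 to 2.97 CPM. Fibroblast and stellate cell markers, 5 of 5 detected, summed to 202 to 279 CPM in vehicle and 133 to 220 CPM in treated livers, and their part in these values was not tested. Ywhag (−0.32) lost its call in 8 of the 10 fits (edgeR adjusted p up to 0.0703). Stub1 (0.36) lost it in 4 of 18 alternatives, among them without vehicle replicate 2 or halofuginone replicate 3 or 5 (up to 0.0594). Hspb6 was also the 1 called gene among the 4 other small heat shock genes tested, of 9 listed.

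Chaperones of the mitochondria, of the TRiC complex and of the endoplasmic reticulum were counted in the same way. Of 11 mitochondrial chaperone and protease genes 4 rose and 1 fell. Lonp1 rose by 1.44 (SE 0.29, edgeR adjusted p 0.00927), Dnaja3 by 1.08 (SE 0.24, edgeR adjusted p 0.0134) and Hspa9 by 1.00 (SE 0.23, edgeR adjusted p 0.0154), whereas Trap1, the mitochondrial HSP90, fell by 0.46 (SE 0.11, edgeR adjusted p 0.0163). Trap1 lost its call in 4 of 18 alternatives, namely library size alone (edgeR adjusted p 0.0561), 1 fit of all groups and both limma fits. For Lonp1, Dnaja3 and Hspa9 only replicates 2 to 5 exceeded vehicle. Hspd1, the HSP60 partner of HSPE1 whose gene lies beside Hspe1, was at 0.28 (SE 0.14, edgeR adjusted p 0.176), named after its value was seen. Of the 8 subunits of the cytosolic chaperonin TRiC 3 rose (Cct2, Cct4 and Tcp1, by 0.32 to 0.41), and these calls were lost in 7 to 9 of the 10 fits (edgeR adjusted p up to 0.102). Without replicate 1, or with library size alone, 7 of the 8 subunits were called higher, beside 2628 of 12422 and 2789 of 12311 genes. Of 14 endoplasmic reticulum chaperones edgeR called 0, with 0 at an unadjusted p under 0.05 and a median of −0.20. The share of all liver genes under that p is not given here, so nothing is read from the second count.

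Among 6 genes of the HSF family and its regulators that were tested, edgeR called 1, Hsbp1, an HSF1-binding protein, at −0.27 (SE 0.077, edgeR adjusted p 0.0313), a call lost in 6 of 10 fits (edgeR adjusted p up to 0.0769) and with library size alone, where 2 other genes of the list were called higher. The cold-inducible genes Rbm3 and Cirbp, both RNA-binding proteins that rise when body temperature is low, rose in liver. Rbm3 went from 32.7 ± 4.71 to 64.4 ± 21.0 CPM (SD, n = 5 each; 0.98, SE 0.22, edgeR adjusted p 0.0127), with replicates 2 to 5 at 53.8 to 89.8 CPM, above all vehicle livers, and replicate 1 at 35.0 CPM, inside the vehicle range. Cirbp rose by 1.11 (SE 0.27, edgeR adjusted p 0.0173) at only 1.93 and 4.19 CPM, and is named although it lies under the 5 CPM set for naming. Of 8 immediate early genes tested 1 rose (Atf3, 2.57, SE 0.69) and 1 fell (Jun, −0.73, SE 0.20), each lost in 6 of 10 fits (edgeR adjusted p up to 0.0613 and 0.0626). Of 11 clock genes tested 0 were called by edgeR, with 2 at an unadjusted p under 0.05. The share of all liver genes under that p is not given here. Of 7 tested targets of ATF4, the transcription factor of the amino acid response, 6 rose. Trib3 was at 5.96 CPM in replicate 1, at 210 to 357 CPM in replicates 2 to 5 and at 2.75 to 5.73 CPM in vehicle. Replicate 1 lay below the vehicle range for Ddit3 (3.73 CPM), inside it for Psat1 (0.596 CPM) and above it for Asns (6.71 CPM). Replicates 2 to 5 lay above vehicle for all of these.

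**Figure D5:**
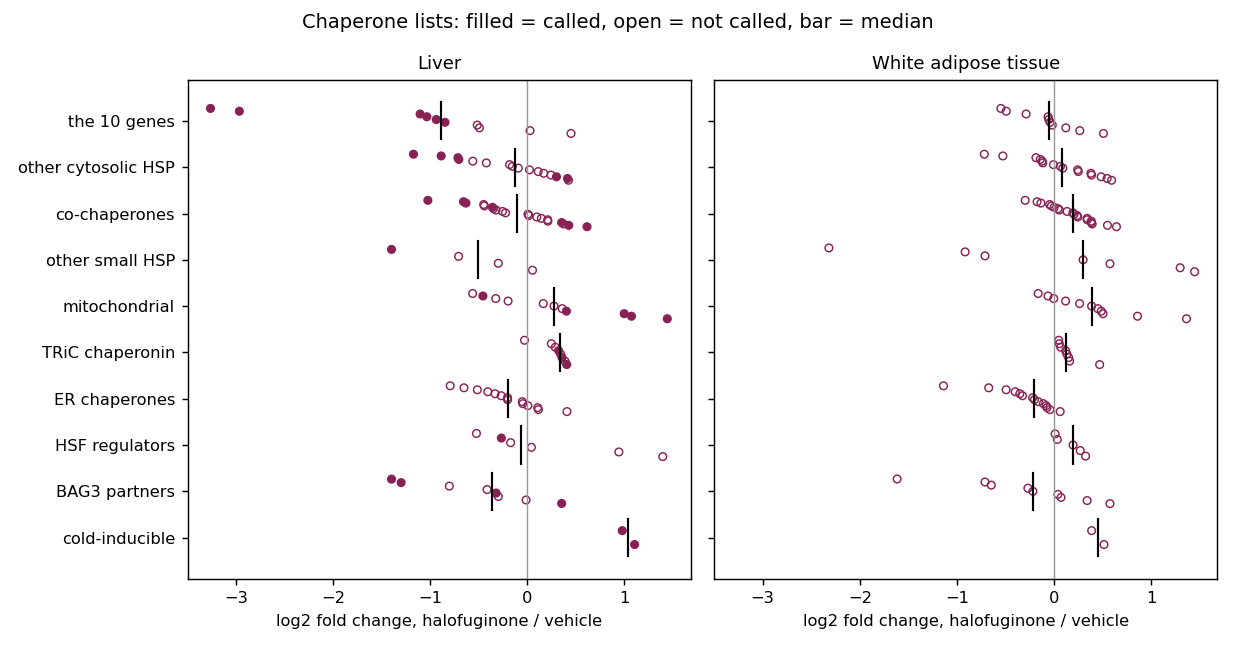
Log2 fold change of halofuginone over vehicle (x axis) for each tested gene of the 10-gene set and of 9 chaperone and related lists (rows), in liver (left) and white adipose tissue (right). Filled points were called by edgeR, open points were not, and the black bar is the median. The 10 genes and BAG3 partners have medians of −0.89 and −0.37 in liver, mitochondrial and TRiC genes 0.28 and 0.33, and no point is filled in fat.

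In fat edgeR called 0 genes of each of these lists, beside 0% of all genes. Of 8 ATF4 targets tested in fat, 7 were higher in the fit, with a median log2 fold change of 1.28. Unadjusted edgeR p-values were under 0.05 for 6 of the 8, beside 13.4% of all genes. DESeq2 called 6 of the 8 higher, beside 208 of 18572 genes. Values of Hspa9 (1.37, SE 0.18, edgeR adjusted p 0.0954) and Dnaja3 (0.86, SE 0.17, edgeR adjusted p 0.159) were higher in 3 of 3 treated libraries, and DESeq2 and 2 further alternatives called Hspa9. Flnc, filamin C and a client of BAG3, was at −1.62 (SE 0.27, edgeR adjusted p 0.123), lower in 3 of 3, and 2 of 14 alternatives called it. Hspb2, of the other small heat shock genes, was at −2.32 and was called in 1 of 14 alternatives. Skeletal muscle markers, 5 of 5 detected, summed to 88.7 to 172 CPM in vehicle fat and 51.1 to 59.5 CPM in treated fat. The single markers were mixed, with 3 lower and 2 higher in the fit and a median log2 fold change of −0.031. Their part in the Flnc value was not tested. Dnaja1 (−0.12, SE 0.25, edgeR adjusted p 0.880), Dnajb4 (−0.0053, SE 0.35, 0.997) and Fkbp5 (0.55, SE 0.31, 0.494) overlapped between the groups.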

How the data were processed

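Per the labels' protocols, oligo(dT)-selected RNA of 16 libraries was prepared with a NEBNext Ultra kit. The submitters' processing notes name fastp 0.18.0, Bowtie2 2.2.8, HISAT2, StringTie 1.3.1, RSEM and the build mm39. Their roles, the annotation and the strand setting are not given in the sources used here. The authors deposited 1 table per tissue with a count and an FPKM column for each library, per the file headers. The deposited counts are whole numbers, but 1 to 31 genes per library show a positive FPKM with no count, and the counts may be rounded estimates. Symbols matched 22267 of 22322 identifiers, and 0 columns were left unmapped.

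Each comparison was fitted to its own 2 groups in R 4.3.3 with the quasi-likelihood F test of edgeR 4.0.16 (TMM factors after filterByExpr, two-sided, Benjamini-Hochberg over all genes). The SE is taken from the log2 fold change and the square root of F. The fits recovered known changes when tested on simulated data. The alternatives were DESeq2 1.42.0, limma 3.58.1 on log2(FPKM + 1) or log2(FPKM + 0.1) for genes with a mean of at least 1 FPKM, other scaling, no filter, 1 fit of all groups, a block for the replicate number, and leaving out each library. The sum of Hspa1a and Hspa1b and the alternatives for pathway lists and genes were added after seeing the data. No 2 libraries agreed within sampling noise (smallest chi-square per degree of freedom 31.2 in liver and 53.1 in fat).

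The members, the 12 pathway lists and 9 marker lists were chosen with earlier results of these data known. Named were all members and, per pathway list, up to 4 called genes with at least 5 CPM and the largest change, or up to 2 uncalled genes with the smallest p. For lists of less relation to the members mainly counts are given. A floor of 3 counts covers counting error only.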

Additional observations from a re-analysis of the deposited data

Results flagged for a closer look

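Among the 88 groups of 5 livers examined for the 10 genes and the named pathway genes, 7 had 1 library far from the rest, with a gap to its nearest neighbour above 0.71 of the group's range. Chance gives about 1 in 20, or 4.4 groups. In 5 of the 7 the library was halofuginone liver replicate 1. It was at 271 CPM for Dnaja1 (next 181), 203 CPM for Fkbp4 (next 123) and 8.44 CPM for Hspb6 (next 2.97), above the other treated livers, and at 105 CPM for Dnaja3 (next 268) and 28.3 CPM for Stub1 (next 35.9), below them. For Dnaja1 it still lay below the vehicle minimum of 361 CPM. Hsph1 was at 64.6 CPM in halofuginone liver replicate 4, with 106 CPM in the next library, and leaving that library out changed its log2 fold change from −0.94 to −0.83. Asns, an ATF4 target, was at 1.35 CPM in vehicle liver replicate 2, with 0.606 CPM in the next.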

How the results depend on the processing

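The number of genes called in liver ranged from 1275 (without halofuginone replicate 3) to 5312 (without halofuginone replicate 1), and library size alone gave 2789 higher and 838 lower, against 1558 and 1292. Replicate numbers showed no sign of pairing. Same-numbered deviations correlated at −0.16 to 0.057 in liver and −0.57 to 0.11 in fat. Differently numbered ones correlated at −0.15 to 0.18 and −0.46 to 0.52. With so few libraries this check cannot exclude a pairing. With the replicate block 1901 liver genes, 0 fat genes and 7218 genes between tissues were called. In fat the number of genes called was 655 with DESeq2, 334 in 1 fit of all groups, 13 with limma on log2(FPKM + 1), 1 with no filter and 0 to 1 on leaving out 1 library.

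Between tissues 1 member was called lower with library size alone, with limma on log2(FPKM + 1) and with limma on log2(FPKM + 0.1). Bag3 turned to 0.69, 0.66 and 0.68 and Hspb1 to 0.67, 0.71 and 0.72 under these, and Hspa1a to −2.01 as the summed pair. Signs also turned in fat. Library size alone gave Hspa1a 0.0086, Hspa1b 0.024, Hsp90aa1 0.069 and Dnajb1 0.012. The limma fits gave Hspa1b 0.0038 and 0.0025, Hsp90aa1 0.27 and 0.28, and Dnajb1 0.011 and 0.012, and the block gave Hsp90aa1 0.20. Leaving out 1 library moved Hspa1a to between −0.26 and 0.14, Hspa1b to between −0.25 and 0.12, Hsp90aa1 to between −0.41 and 0.58 and Dnajb1 to between −0.14 and 0.040. The cause was not tested. At 3 against 3 libraries the standard errors of 0.14 to 0.51 limit what fat can show for the 10 genes.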
